A study of Homo sapiens with 16 samples.

Results

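Basement membranes are thin sheets of extracellular matrix under epithelia and around vessels. Collagen IV forms their covalent network and laminins a second network that cells bind through integrins, with nidogens and the proteoglycan perlecan linking them. Collagen IV protomers in most tissues combine the α1 and α2 chains, encoded by COL4A1 and COL4A2, and each laminin is a trimer of an α, a β and a γ chain. Ovarian surface and carcinoma cells produce these proteins, and carcinoma cells cross such sheets when they invade.

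The genes described are COL4A1, COL4A2, the laminin chain genes LAMA3, LAMA5, LAMB1, LAMB3 and LAMC1, and HSPG2, which encodes perlecan. Members were all probe sets that the platform annotation assigns to exactly 1 of these 8 symbols. That gave 12 probe sets for 7 genes among the 11963 genes of the U133A array, and 7 probe sets, 1 for each of the same genes, on the U95 array. LAMA3 was not analysed here. All 7 genes lay above the filter on low values and were among the 7178 genes tested.

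The cells were OVCAR3, an established human ovarian carcinoma line, so every value comes from this 1 line. They received 1,25-dihydroxyvitamin D3 (1,25(OH)2D3), the active vitamin D hormone, whose receptor is a transcription factor. The series' design text gives the dose as 0.1 pM. This unit may be a typing error, which arrays cannot check. The groups were ethanol vehicle (0 h) and 8, 24 and 72 h of hormone. Hormone was added at staggered times and all cultures, which had the same ethanol exposure, were taken at 1 harvest. On U133A arrays each group had 3 replicates from 3 independent experiments, and on U95 arrays each group had 1 sample.

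Values are MAS5 signals, a brightness per probe set in arbitrary units, and cannot be compared between probe sets. Median signals of the 12 U133A arrays ran from 168 to 196, and arrays correlated between 0.958 and 0.976 on the log2 scale. All 9 markers of ovarian epithelial carcinoma fixed for this check, among them PAX8, WT1 and EPCAM, lay above the filter. Among fibroblast markers 3 of 8 did, and their summed signal was 1257 to 1394 in vehicle arrays and 1205 to 1454 in treated ones. Among the 5 endothelial markers and the 4 leukocyte markers measured, 0 did. Endothelial cells are a rich source of collagen IV, and the endothelial sum was 211 to 403 in vehicle, 281 to 317 at 8 h, 285 to 347 at 24 h and 187 to 367 at 72 h, so it overlapped between vehicle and every time. Over all arrays PECAM1 was at 76.7 to 259.5, KDR at 11.7 to 78.8, TEK at 24.3 to 57.6, VWF at 18.8 to 45.2 and CDH5 at 3.28 to 35.7. At 72 h CDH5 and KDR lay below all their vehicle arrays, and PECAM1, TEK and VWF overlapped theirs. These low signals had no test, and the share of all genes that separate in this way was not counted. The summed carcinoma markers were at 39470 to 44130 in vehicle and 38500 to 44770 in treated arrays. Such sums weigh bright probe sets most, and single markers moved. WT1 rose at 8, 24 and 72 h (log2 changes 0.97, 1.00 and 1.05), CDH1 at 24 and 72 h (0.66 and 0.69) and KRT7 at 72 h (0.48). KRT18 was lower at 24 and 72 h (-0.50 and -0.37) and PAX8 at 24 h (-0.37). Their part in the changes of the basement membrane genes was not tested.

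COL4A1 and COL4A2 rose at every time, LAMB3 rose at 24 and 72 h and HSPG2 at 24 h, while LAMA5, LAMB1 and LAMC1 did not pass the test at any time. A gene was called when its adjusted p in limma, a linear model fitted to all tested genes, was under 0.05. The members were chosen with earlier results of these data known, so shares of all genes beside their counts are a description and no test. At 8 h 2 of the 7 genes were higher, against 0.711% of all 7178 genes. At 24 h 4 of 7 were higher, against 2.45%, and at 72 h 3 of 7, against 3.86%. Of the 4, HSPG2 lost its 24 h call in 13 of the 20 alternative fits that gave it a value. Its U95 probe set showed no such rise. None of the 7 was called lower at 8, 24 or 72 h, against 0.0557%, 1.62% and 2.98% of all genes. This count reads each gene from its brightest probe set. The other probe set of LAMB1 was called lower at 72 h among all probe sets tested (adjusted p = 0.037). The median log2 change of the 7 genes was 0.57, 0.69 and 0.89 at 8, 24 and 72 h, and that of all genes -0.004, -0.02 and -0.01. On the single U95 arrays the median of the same 7 genes was -0.18, 0.17 and -0.16, so no rise of the group was seen there. Of the 7, 3, 5 and 3 were positive on U95, where the median of all genes above the filter was -0.02, -0.03 and -0.06. In RNA from whole cultures, more RNA per cell and more cells with that RNA cannot be told apart.

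**Figure D1:**
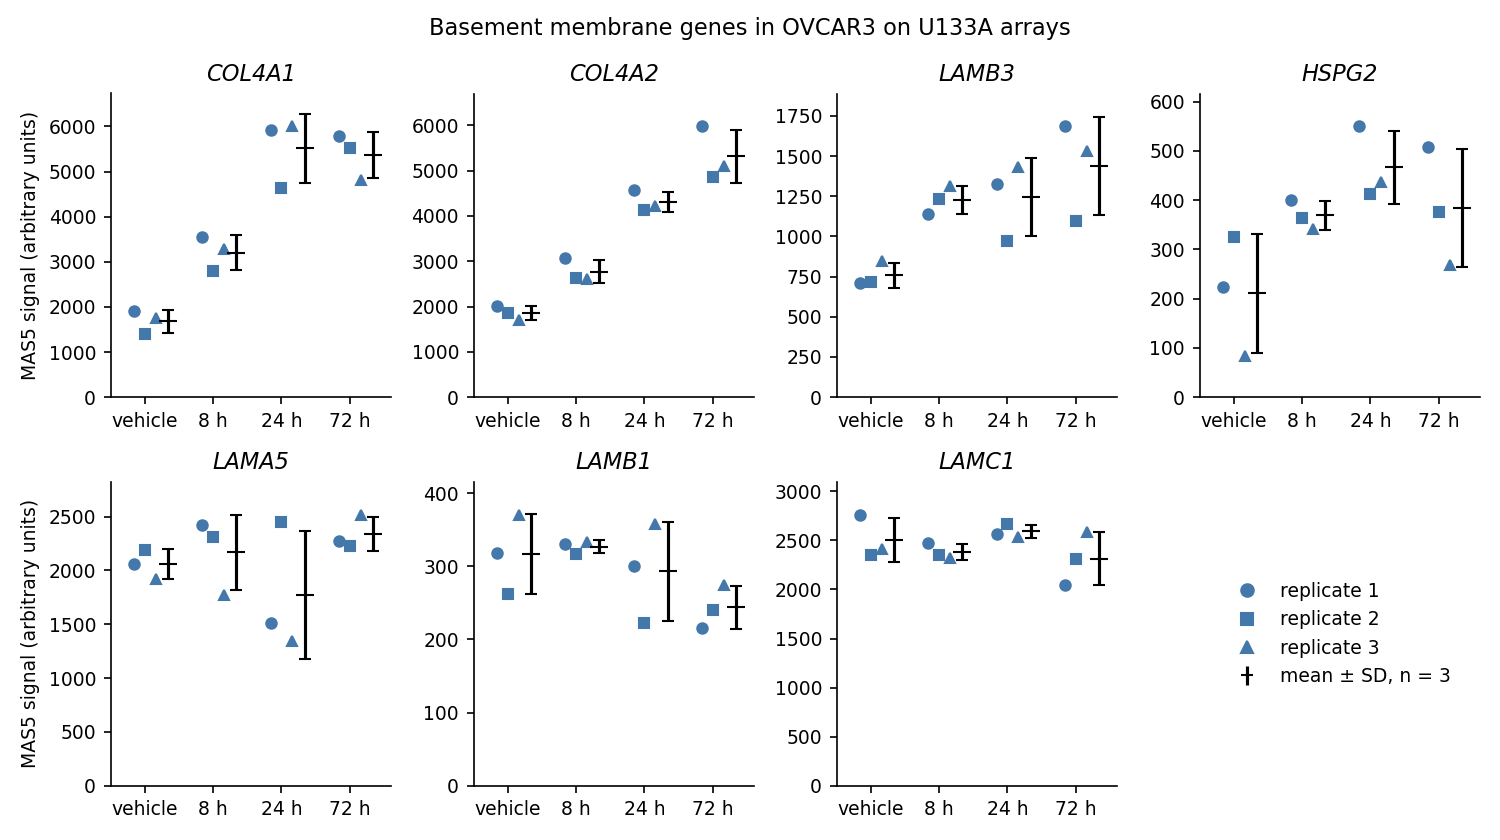
MAS5 signal (y axis, arbitrary units, from 0) of the brightest probe set of each gene in vehicle and after 8, 24 and 72 h of 1,25(OH)2D3 (x axis). Points are single U133A arrays, with a shape for each replicate number, and the black bar is the mean ± SD (n = 3). COL4A1 and COL4A2 lie above all their vehicle arrays at every time, whereas the vehicle arrays of LAMC1 overlap those of each treated group.

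COL4A1 and COL4A2 lie head to head on chromosome 13 and are read in opposite directions. In RefSeq on GRCh38.p14, COL4A1 spans chr13:110148963-110307157 on the minus strand and COL4A2 spans chr13:110307284-110513209 on the plus strand. Only 126 bases separate their starts, so this stretch is upstream of both. It is printed because the genes it lies between were the 2 members higher at every time, and the stretch upstream of LAMB3, the other member that passed the test of any time, is printed for comparison. LAMB3 spans chr1:209614870-209652425 on the minus strand, and its 250 bases at chr1:209652426-209652675 are those before the most upstream of its 3 listed starts. Both are written 5′ to 3′, the first on the plus strand (chr13:110307158-110307283) and the second on the minus strand, and capitals mark matches to the motifs named next.
COL4A1 to COL4A2: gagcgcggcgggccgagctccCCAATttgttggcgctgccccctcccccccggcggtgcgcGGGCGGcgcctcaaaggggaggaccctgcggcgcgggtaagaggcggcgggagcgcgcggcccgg
LAMB3: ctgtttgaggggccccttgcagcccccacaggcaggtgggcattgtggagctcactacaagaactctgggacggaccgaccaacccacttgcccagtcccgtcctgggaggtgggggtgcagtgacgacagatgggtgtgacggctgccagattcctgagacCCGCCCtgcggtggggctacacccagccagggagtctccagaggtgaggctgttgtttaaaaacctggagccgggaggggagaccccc

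The motifs searched on both strands were CCAAT, the GC box GGGCGG, the TATA box TATAAA, the nuclear receptor half-site AGGTCA and the direct-repeat vitamin D response element. Counted from its first base, the stretch between COL4A1 and COL4A2 held CCAAT at 22 to 26 and GGGCGG at 62 to 67, both on the plus strand and without overlap. CCAAT occurred in the 126 bases before the start of 21.9% of 27305 RefSeq promoters, and GGGCGG in 34.6%. The LAMB3 stretch held GGGCGG on the opposite strand at 163 to 168, a motif found in 42.3% of promoters over 250 bases and in all 7 genes measured. CCAAT, found in 33.0% over 250 bases, occurred in 2 of the 7, COL4A1 and COL4A2, where it is the same site read from either side. The TATA box, the half-site and the response element had 0 matches in these 250 bases of the 7 genes, against 11.1%, 12.1% and 0.0659% of promoters. A match is a run of letters and no evidence of binding. With the response element in so few promoters, 0 matches was the likely outcome for any 7 genes. Its absence from these bases says nothing about receptor binding at these genes.

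COL4A1 encodes the α1 chain of collagen IV. Its signal was 1903, 1407 and 1753 in the vehicle arrays (replicates 1, 2 and 3). It was 3552, 2790 and 3274 at 8 h, 5914, 4640 and 6009 at 24 h, and 5789, 5514 and 4804 at 72 h. All 9 treated arrays lay above all vehicle arrays, and the 24 and 72 h arrays above all 8 h arrays. Replicate 2 was lowest in vehicle and at 8 and 24 h. The rise was 1.90-fold at 8 h (log2 change 0.92, SE 0.13, 95% confidence interval 0.64 to 1.20, adjusted p = 0.0014). It was 3.25-fold at 24 h (log2 change 1.70, SE 0.13, adjusted p = 7.5e-07) and 3.18-fold at 72 h (1.67, SE 0.13, adjusted p = 6.2e-07). Counted from the largest rise, COL4A1 ranked 29, 18 and 27 among the 7178 genes at 8, 24 and 72 h.

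COL4A2 encodes the α2 chain, its partner in the protomer. Its signal was 2013, 1861 and 1696 in vehicle and 3061, 2628 and 2616 at 8 h. It was 4560, 4128 and 4220 at 24 h and 5982, 4866 and 5105 at 72 h. The 4 groups did not overlap, and each later group lay above the earlier ones. The rise was 1.49-fold at 8 h (log2 change 0.57, SE 0.10, 95% confidence interval 0.36 to 0.79, adjusted p = 0.0082), 2.31-fold at 24 h (1.21, SE 0.10, adjusted p = 1.7e-06) and 2.84-fold at 72 h (1.51, SE 0.10, adjusted p = 1.4e-07). The call at 8 h ended without vehicle replicate 3 (adjusted p = 0.068) or 8 h replicate 1 (0.065), with median centring (0.068) and with the mean of both probe sets (0.084).

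Both collagen genes were higher at 24 and 72 h than at 8 h. COL4A1 was 0.78 higher on the log2 scale at 24 h than at 8 h (SE 0.13, adjusted p = 0.012; 0.641% of genes differed) and 0.74 higher at 72 h than at 8 h (adjusted p = 0.0054; 2.52% of genes). From 24 to 72 h its change was -0.03, with a 95% confidence interval from -0.31 to 0.25 (0.153% of genes differed between these times). COL4A2 was 0.64 higher at 24 h than at 8 h (SE 0.10, adjusted p = 0.0079) and 0.94 higher at 72 h than at 8 h (adjusted p = 6.4e-05). Its change from 24 to 72 h was 0.30 (interval 0.09 to 0.52, adjusted p = 0.28) and did not pass over all genes. In all, 2 of 7 genes differed between times, against 2.62% of all genes. The difference between 24 and 8 h missed the threshold for COL4A1 when 8 h replicate 2 or 3, or 24 h replicate 1 or 3, was left out (adjusted p up to 0.076). For COL4A2 it did so when 8 h replicate 2 or 3 was left out (adjusted p up to 0.072).

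Within an array, the log2 value of COL4A1 minus that of COL4A2 was -0.14 ± 0.23 in vehicle (mean ± SD, n = 3). It was 0.21 ± 0.12 at 8 h, 0.35 ± 0.17 at 24 h and 0.02 ± 0.14 at 72 h. At 8 and 24 h all values of the difference lay above all vehicle values, with group means 0.35 and 0.49 higher, and at 72 h they overlapped. An exact permutation test of 3 against 3 arrays, two-sided, cannot go below p = 0.1, and it gave 0.1, 0.1 and 0.5 for n = 3 a group (0.12, 0.12 and 0.50 adjusted over 6 such tests). At this number of arrays the test could not have passed at any time, so it does not settle whether the rises of the 2 chains differ in size.

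The other probe set of each collagen gene moved the same way. For COL4A1 it had log2 changes of 0.75, 1.53 and 1.49 at 8, 24 and 72 h, and for COL4A2 0.51, 1.51 and 1.81. Among 11443 probe sets tested in the same model, both were called at 24 h (adjusted p = 0.0011 and 1.2e-04; 1.84% of probe sets were higher) and at 72 h (8.5e-04 and 1.4e-05; 3.10%). At 8 h neither was called (adjusted p = 0.34 and 0.48; 0.507% were higher). The other probe set of COL4A1 did not pass between times, at 24 h against 8 h (0.78, adjusted p = 0.27) or 72 h against 8 h (0.74, adjusted p = 0.13). That of COL4A2 passed both (adjusted p = 0.025 and 9.6e-04). On the U95 arrays COL4A1 went from 722 in vehicle to 943, 1859 and 2117, log2 ratios of 0.38, 1.35 and 1.53. COL4A2 went from 2041 to 2429, 5480 and 6940, log2 ratios of 0.25, 1.42 and 1.76. These single arrays have no replicate check. At 24 and 72 h both genes lay above the 95th percentile of the 4937 genes above the U95 filter, which was 0.57 and 0.61, and at 8 h below it (0.46).

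**Figure D2:**
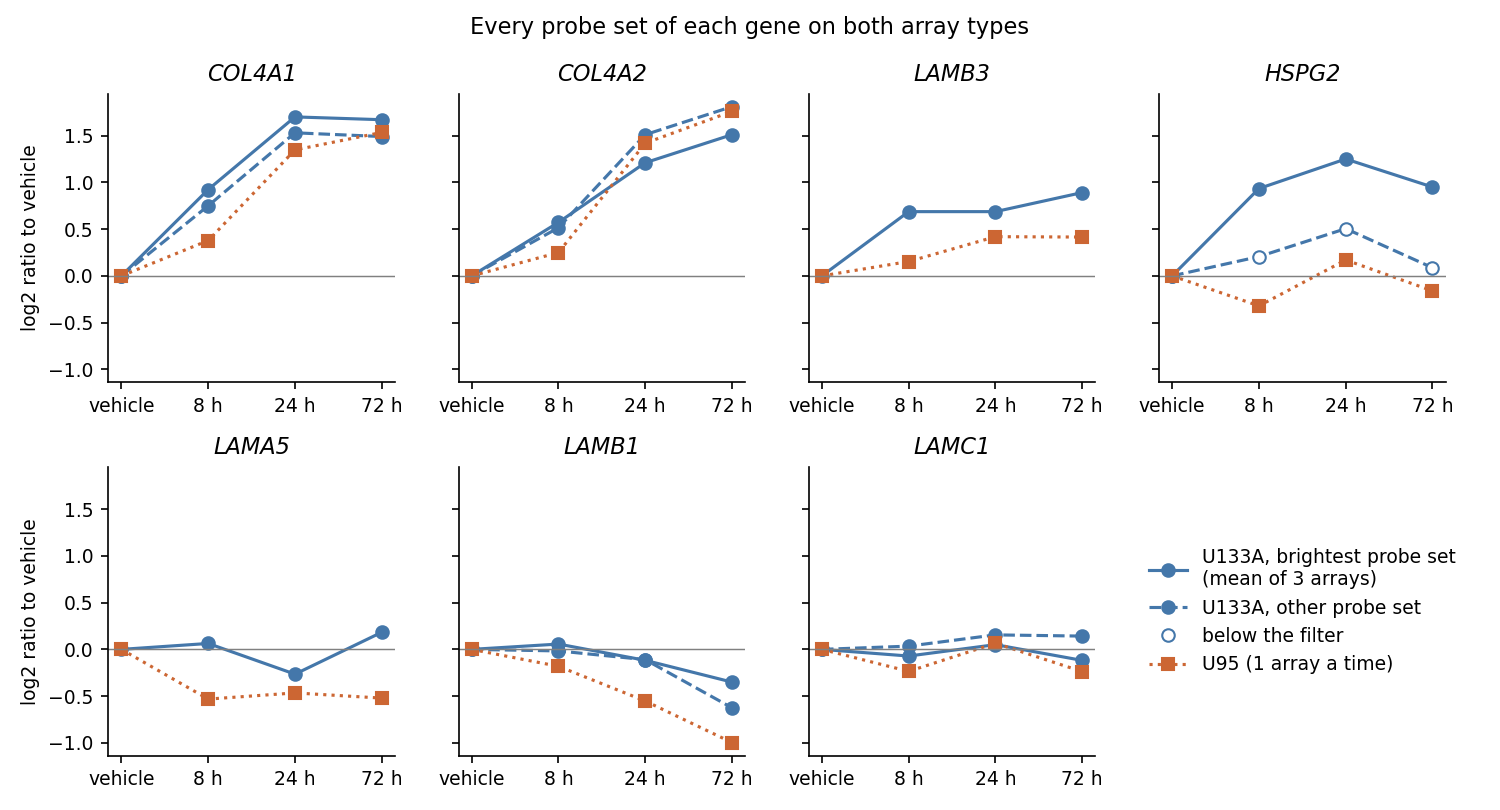
Log2 ratio to vehicle (y axis) of every probe set by time (x axis). Blue circles are means of 3 U133A arrays, with the brightest probe set solid and any other dashed. Orange squares are single U95 arrays, and open circles mark a probe set below the filter. All 3 probe sets of COL4A1 and of COL4A2 climb between 8 and 24 h, while the U95 probe set of HSPG2 stays between -0.32 and 0.17.

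LAMB3 encodes the β3 chain of the laminin that anchors hemidesmosomes of epithelia. Its signal was 713, 716 and 847 in vehicle, 1141, 1231 and 1315 at 8 h, 1325, 971 and 1435 at 24 h, and 1687, 1096 and 1534 at 72 h. All 9 treated arrays lay above all vehicle arrays, and replicate 2 was the lowest array at 24 and at 72 h. The log2 change was 0.69 at 8 h (SE 0.16, 95% confidence interval 0.34 to 1.03, adjusted p = 0.075), which did not pass in the main fit. It did without 24 h replicate 2 (0.028) or 72 h replicate 2 (0.024), with array weights (0.012) and with a replicate block (given at the end). The change was 0.69 at 24 h (1.61-fold, SE 0.16, adjusted p = 0.023) and 0.89 at 72 h (1.85-fold, SE 0.16, adjusted p = 0.0023). Between 24 h and 8 h the difference was 0.00, with an interval from -0.34 to 0.34. With vehicle replicate 1 or 2, or 24 h replicate 1 or 3, left out, the 24 h call did not hold (adjusted p up to 0.10). LAMB3 has 1 probe set on each array type, and on U95 its log2 ratios were 0.15, 0.42 and 0.42, inside the middle 90% of genes.

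HSPG2 encodes perlecan, a large heparan sulfate proteoglycan. Its signal was low, at 224, 325 and 83.5 in vehicle, 401, 365 and 342 at 8 h, 551, 412 and 438 at 24 h, and 509, 377 and 269 at 72 h. The 8 and 24 h arrays lay above all vehicle arrays and the 72 h arrays overlapped them. Vehicle replicate 3 was far below the other vehicle arrays. The log2 change was 0.93 at 8 h (SE 0.33, adjusted p = 0.40), 1.25 at 24 h (SE 0.33, adjusted p = 0.044) and 0.95 at 72 h (SE 0.33, adjusted p = 0.11). With a replicate block, given at the end, the 72 h change passed. The 72 h change was 1.33 without vehicle replicate 2 (adjusted p = 0.020) and 0.44 without vehicle replicate 3 (0.36), and without the latter the 8 h change was 0.43 (adjusted p = 1). Without vehicle replicate 3 the change at 24 h was 0.74 (adjusted p = 0.14). This call was lost in 13 of the 20 alternatives that gave it a value. In 9 of these 1 array was left out, either vehicle replicate 1 or 3, any 8 h or 24 h array, or 72 h replicate 2. Among the 11443 probe sets tested in the same model, the brighter HSPG2 probe set was not called at 24 h (adjusted p = 0.055). Its other probe set lay below the filter, between 6.77 and 154, and had changes of 0.21, 0.51 and 0.09. On U95 the ratios were -0.32, 0.17 and -0.16, so the rise was not seen with that probe set.

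LAMA5, LAMB1 and LAMC1 encode the α5, β1 and γ1 chains, which together form a laminin common in adult epithelial basement membranes. LAMC1 had signals of 2764, 2349 and 2411 in vehicle and 2042, 2312 and 2589 at 72 h, with 2316 to 2671 in the arrays between. Each treated group overlapped vehicle, while the 24 h arrays lay above all 8 h arrays, and its log2 changes of -0.07, 0.05 and -0.12 at 8, 24 and 72 h had intervals from -0.33 to 0.26 over all 3 times. Its other probe set had 0.03, 0.16 and 0.14, so the sign at 72 h depends on the probe set. A change of LAMC1 as large as that of COL4A1 or COL4A2 lay outside these intervals at every time.

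LAMA5 had signals of 2063, 2193 and 1922 in vehicle, 2424, 2311 and 1771 at 8 h, 1511, 2449 and 1347 at 24 h, and 2269, 2230 and 2519 at 72 h. At 24 h replicate 2 was the highest array of that group and above all vehicle arrays, whereas the other 2 were below them. The 72 h arrays lay above all vehicle arrays, but only narrowly (lowest 2230, against a highest vehicle array of 2193). The log2 changes were 0.06 (interval -0.31 to 0.43), -0.26 (-0.63 to 0.11) and 0.18 (-0.19 to 0.55, adjusted p = 0.63). Without 24 h replicate 2 the change at 24 h was -0.52 (adjusted p = 0.035). On U95 its ratios were -0.53, -0.47 and -0.52, so U133A and U95 differ in sign at 8 and 72 h.

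LAMB1 had signals of 318, 262 and 371 in vehicle, 331, 317 and 333 at 8 h, 300, 223 and 357 at 24 h, and 216, 241 and 275 at 72 h. The 72 h arrays included the lowest value of this gene, and overlapped vehicle by 1 array. The log2 changes were 0.06, -0.12 and -0.35, and at 72 h the interval was -0.73 to 0.03 (adjusted p = 0.30). Its other probe set, at 250 to 283 in vehicle and 150 to 194 at 72 h with no overlap, fell by 0.63 on the log2 scale at 72 h (SE 0.17, adjusted p = 0.037 over all probe sets, of which 2.67% were lower). The U95 ratios were -0.18, -0.55 and -0.996, and the last lay below the 5th percentile of all genes (-0.74). The U133A probe sets thus differ in whether they pass, and share the direction at 72 h. With the mean of both, the limma change at 72 h was -0.49 (adjusted p = 0.070).

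**Figure D3:**
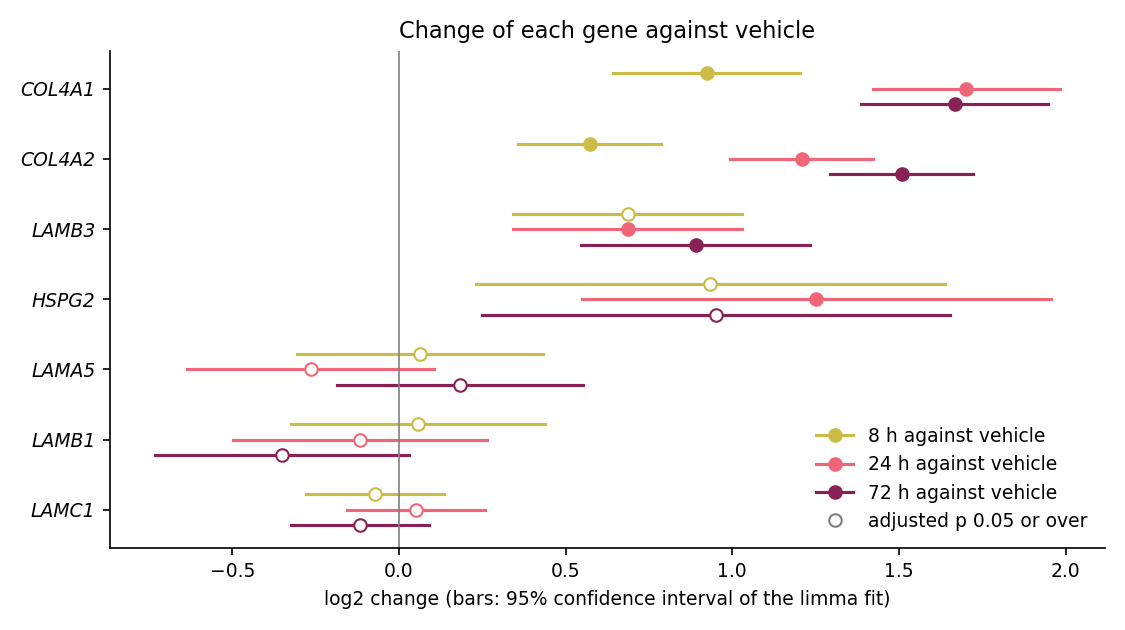
Log2 change against vehicle (x axis) of the brightest probe set of each gene (y axis), with the 95% confidence interval of the limma fit. Filled points have an adjusted p under 0.05. COL4A1 and COL4A2 are filled at 8, 24 and 72 h, LAMB3 at 24 and 72 h and HSPG2 at 24 h, where its interval is the widest of the 7 genes.

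The laminin β genes were set against each other in the same way. The log2 value of LAMB3 minus that of LAMB1 was 1.23 ± 0.15 in vehicle (n = 3), 1.86 ± 0.10 at 8 h, 2.03 ± 0.07 at 24 h and 2.47 ± 0.38 at 72 h. At each time all arrays lay above all vehicle arrays, and the group means differed by 0.63, 0.80 and 1.24. The exact permutation test gave p = 0.1 each time for n = 3 a group, the smallest it allows (0.12 adjusted over the 6 tests), so this difference could not have passed. Both pairs were chosen after their values were seen, and each gene was read from its brightest probe set. The share of all gene pairs that separate in this way was not counted.

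**Figure D4:**
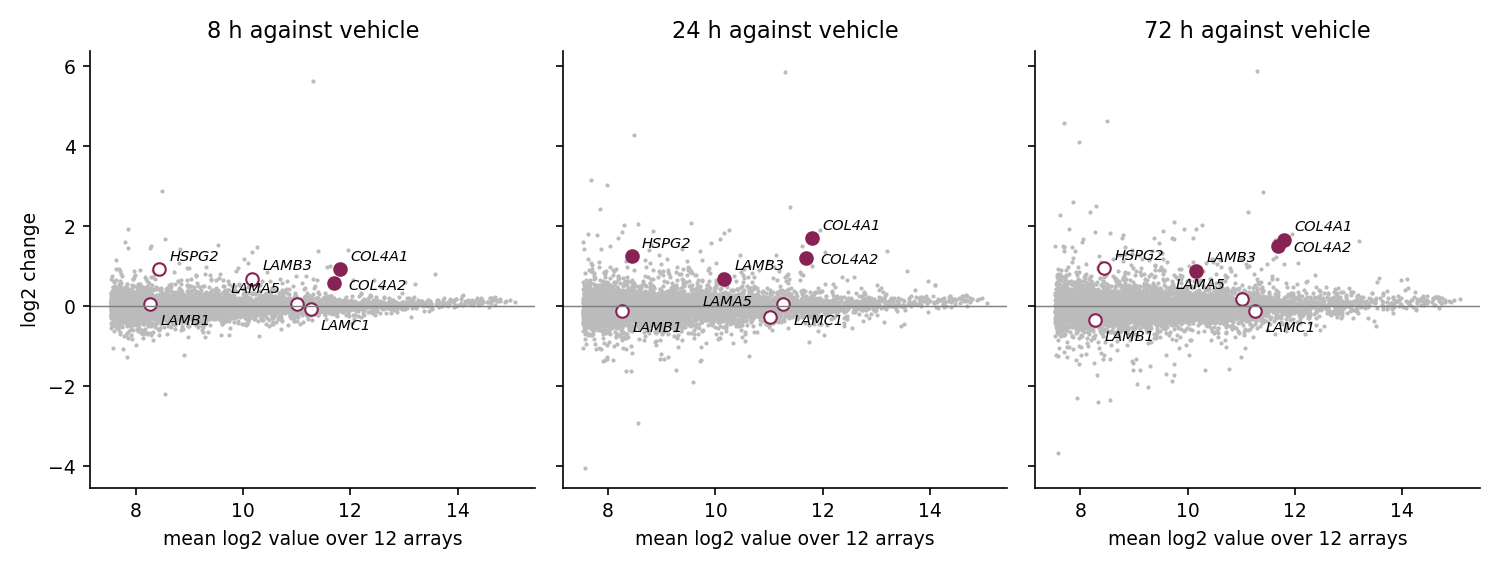
Log2 change against vehicle (y axis) and mean log2 value over the 12 U133A arrays (x axis) of the 7178 tested genes (grey), with the 7 basement membrane genes in purple, filled where the adjusted p was under 0.05. At 72 h COL4A1 and COL4A2 stand together at 1.67 and 1.51, and LAMA5, LAMB1 and LAMC1 lie within the bulk of genes.

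Over the test of any time against vehicle, 3 of 7 genes passed, against 5.21% of all genes. These were COL4A2 (adjusted p = 4.2e-07), COL4A1 (1.1e-06) and LAMB3 (0.010; not passed without vehicle replicate 1 or 2). For each, the 3 genes with the highest Pearson correlation of log2 values over the 12 U133A arrays were listed as a description, since all share the same 4 groups. For COL4A1 they were the docking protein DOK5 (r = 0.975), the antimicrobial peptide gene CAMP (0.970) and LBH (0.969). For COL4A2 they were the actin-binding ABLIM1 (0.994), the protease KLK6 (0.979) and DPYSL3 (0.979). COL4A1 itself came 19th in likeness to COL4A2 (r = 0.952). For LAMB3 they were HMOX2 (0.963), WWC1 (0.922) and the transcription factor OSR2 (0.922). ABLIM1 had log2 changes of 0.55, 1.37 and 1.63, close in course to the 0.57, 1.21 and 1.51 of COL4A2, and DOK5 had 1.07, 1.69 and 1.71 beside the 0.92, 1.70 and 1.67 of COL4A1.

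Of the other structural genes of basement membranes, 19 were measured and 9 tested, which did not pass: COL4A5, COL4A6, LAMA4, LAMB2, NID2, AGRN, COL18A1, FBLN1 and TINAGL1. None was called at any time (percentages of all genes as above), with changes between -0.32 and 0.50 at 8 h, -0.33 and 0.37 at 24 h and -0.16 and 0.23 at 72 h. The list's median was 0.06, 0.02 and 0.13. The collagen IV genes COL4A3 and COL4A4 lay below the filter, with mean vehicle signals of 94.5 and 7.95, as did LAMA1, LAMA2, LAMC3, NID1, COL7A1, COL15A1, SPARC and FBLN2, and these 10 had no test. Among them, singled out after the values were seen, COL7A1, the anchoring fibril collagen, was at 52.5 to 180 in vehicle and 239 to 286 at 72 h. LAMA1, the laminin α1 chain gene, was at 46.4 to 124 in vehicle and 19.2 to 25.0 at 72 h. These are low signals picked out of 10 untested genes. The share of all genes that separate in this way was not counted.

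Of 13 receptor genes 7 were tested, and 1 rose and 1 fell at 24 h (2.45% and 1.62% of all genes) and at 72 h (3.86% and 2.98%). SDC4, the heparan sulfate proteoglycan syndecan-4, fell from 1869 to 2287 in vehicle to 1119 to 1147 at 24 h (log2 change -0.87, SE 0.09, adjusted p = 3.2e-05) and 1181 to 1248 at 72 h (-0.77, adjusted p = 7.3e-05). On U95 its ratios were -0.15, -0.93 and -0.50. CD151, a tetraspanin that binds laminin-binding integrins, rose by 0.47 at 24 h (adjusted p = 0.048) and 0.52 at 72 h (adjusted p = 0.019), with U95 ratios of 0.17 and 0.24. The 24 h call of CD151 was lost on leaving out each single array of vehicle, 8 h or 24 h, or 72 h replicate 2 (adjusted p up to 0.23). The 72 h call was lost on leaving out vehicle replicate 3 or 72 h replicate 1 (adjusted p up to 0.11), and with median centring (0.051). The integrin genes ITGA3, ITGA6 and ITGB1 and the laminin α5 receptor gene BCAM were not called.

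Of 13 genes for collagen folding, modification and crosslinking, all were tested. None was called at 8 h, 1 rose at 24 h (2.45% of all genes) and 2 rose at 72 h (3.86%), and 0 fell. At 8, 24 and 72 h, 6, 10 and 12 of 13 were positive, against 48.8%, 46.7% and 47.6% of all genes. The list's median was -0.008, 0.09 and 0.28, against -0.004, -0.02 and -0.01 for all genes. PXDN, peroxidasin, which forms sulfilimine bonds between collagen IV protomers, rose by 0.45 at 24 h (adjusted p = 0.044) and 0.46 at 72 h (adjusted p = 0.027). Its other probe set had 0.95 and 0.33, and the U95 ratios were -0.01 and -0.11. P4HB, a subunit of prolyl 4-hydroxylase, rose by 0.28 at 72 h (adjusted p = 0.040), with 0.13 on its other probe set. Its 3 U95 probe sets had 72 h ratios of 0.37, 0.22 and -0.41, so they differ in direction. Calls of these genes depended on single arrays and on settings. PXDN at 24 h was lost on leaving out each single vehicle or 24 h array, 8 h replicate 2 or 8 h replicate 3 (adjusted p up to 0.21). At 72 h it was lost on leaving out replicate 1 or 2 of vehicle or of 72 h (adjusted p up to 0.14), on averaging both probe sets (0.24) and without the trend in eBayes. P4HB was lost in 9 of the 12 fits that left out 1 array (adjusted p up to 0.15), the exceptions being 8 h replicate 1, 24 h replicate 2 and 72 h replicate 2. It was also lost with no filter, median centring, the mean of its probe sets (adjusted p = 0.22), no trend and array weights.

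Of 14 genes of basement membrane proteolysis and its inhibitors, 13 were tested, and CTSB alone was called, at 24 h (1.62% of all genes were lower) and at 72 h (2.98%). CTSB, the lysosomal cysteine protease cathepsin B, fell from 13140 to 14300 in vehicle to 9908 to 10590 at 24 h (log2 change -0.44, SE 0.07, adjusted p = 0.0020) and 9275 to 9992 at 72 h (-0.49, SE 0.07, adjusted p = 4.7e-04). Its 4 probe sets ranged from -0.66 to -0.44 at 24 h and from -0.77 to -0.49 at 72 h, and on U95 the ratios were -0.36 and -0.37. The gelatinase genes MMP2 and MMP9, which cleave collagen IV, and the inhibitor genes TIMP1, TIMP2 and TIMP3 were not called, and the list's median was -0.01, 0.02 and 0.10.

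**Figure D5:**
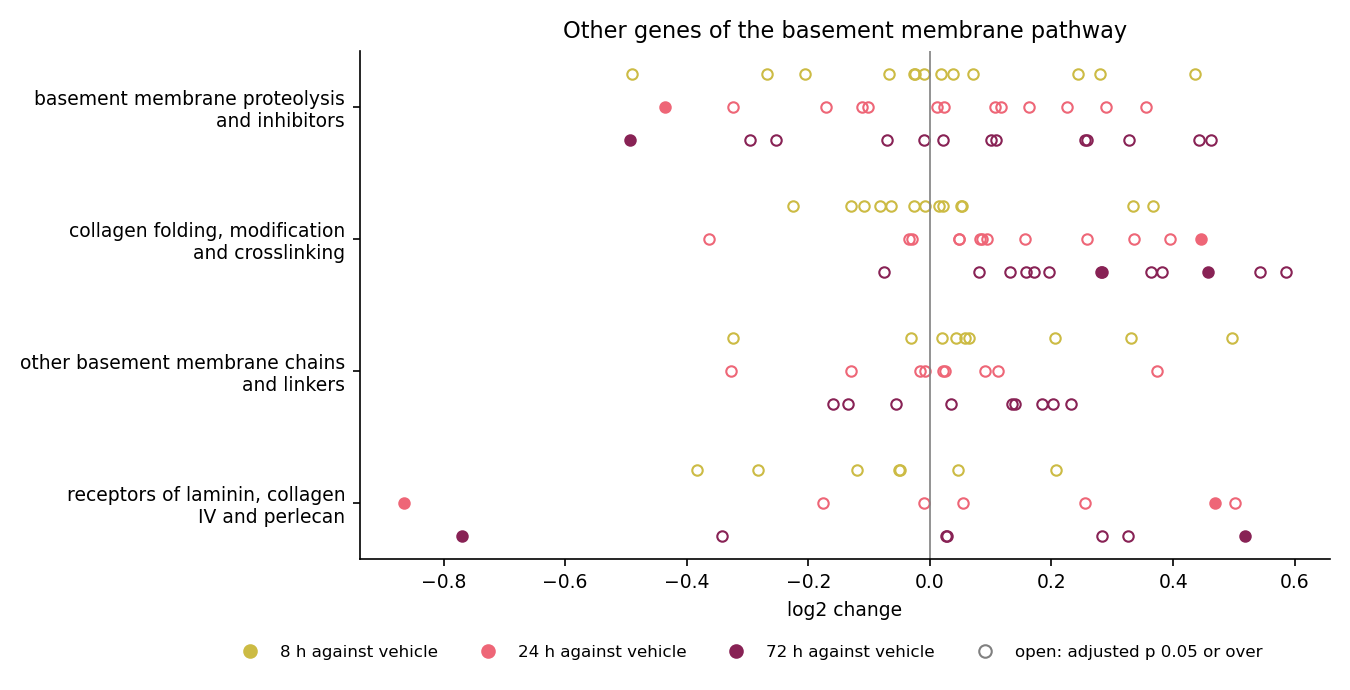
Log2 change against vehicle (x axis) of each tested gene of 4 basement membrane lists (y axis), at 8, 24 and 72 h. Filled points have an adjusted p under 0.05. The filled points are SDC4 (leftmost, -0.87 and -0.77), CD151, PXDN, P4HB and CTSB, and the list of other chains and linkers has none.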

How the data were processed

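The authors deposited linear intensity values that the submitters' processing notes attribute to MAS5, with no version. A 2% trimmed mean of 500.2 on each array was taken as the sign of a common scaling, which was kept. Probe sets with 1 gene in the platform annotation were used (19071 of 22283 on U133A and 10961 of 12626 on U95). In R 4.3.3, values were taken as log2(value + 15.8), the 10th percentile of U133A values (13.9 for U95). Folds are on that scale and understate changes of low signals. Each gene was read from its brightest probe set on average, and genes with a mean under the 40th percentile were left out.

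All 12 U133A arrays entered limma 3.58.1 (eBayes with trend, 8 residual degrees of freedom), with Benjamini-Hochberg adjustment over all genes. U95 arrays got no test. Detection calls were not used here, and the number of arrays limits the precision. Of 18 correlations of deviations between same-numbered arrays, all were positive (0.052 to 0.26). All 3 pairs were over 0.1 in 2 of 6 group pairs, 8 with 24 h and 24 with 72 h. By this cut-off the numbers pair the arrays there, but the correlations are low and no label states a pairing. The main fit had no replicate block. A block changed no call between 8 and 24 h or between 24 and 72 h, and the calls against vehicle that it added are given below. Named genes were the members, members of 4 lists with an adjusted p under 0.05, and the 3 most correlated genes. COL7A1 and LAMA1 were described outside this rule, after their values were seen. The members and lists were chosen with earlier results of these data known.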

Additional observations from a re-analysis of the deposited data

Results flagged for a closer look

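The effect of 1,25(OH)2D3 on the collagen IV genes differed between times, by the limma contrasts between them. For COL4A1 the change was 0.78 larger on the log2 scale at 24 h than at 8 h (adjusted p = 0.012) and 0.74 larger at 72 h than at 8 h (adjusted p = 0.0054). For COL4A2 it was 0.64 larger at 24 h than at 8 h (adjusted p = 0.0079) and 0.94 larger at 72 h than at 8 h (adjusted p = 6.4e-05). The other probe set of COL4A1 passed neither difference. For both genes the difference between 24 and 8 h was lost when some single arrays were left out. Groups of 3 arrays are too small for the check for a stray sample, so the low vehicle replicate 3 of HSPG2 was not put through it.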

How the results depend on the processing

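There were 22 alternatives, 12 of which left out 1 array. COL4A1 and COL4A2 kept their calls at 24 and 72 h in all of them, COL4A1 also at 8 h, and LAMB3 at 72 h. The number of the 7 genes called at 8 h was 1 in place of 2 with median centring and with the mean of all probe sets of a gene, and at 24 h it was 2 in place of 4 without the trend in eBayes. It was 3 at 24 h with no filter, the 60th percentile filter, quantile normalization, median centring and the mean of all probe sets. Leaving out 1 array gave 1 to 3 genes at 8 h, 2 to 4 at 24 h, 3 to 4 at 72 h, 2 to 4 in the test of any time and 2 between times. With a replicate block 3 genes were called at 8 h, 4 at 24 h, 4 at 72 h and 4 in the test of any time. The calls it added were LAMB3 at 8 h (adjusted p = 0.016) and HSPG2 at 72 h (0.041) and in the test of any time. The block changed no other call of the 7 genes against vehicle. With array weights LAMB3 was called at 8 h (adjusted p = 0.012). HSPG2 had no value with the filter at the 60th percentile or with the mean of its probe sets, as it then lay below the filter.

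Changes near 0 turned sign. LAMB3 at 24 h against 8 h was 0.000435 with 4 times the pseudocount, 0.025 with median centring and 0.050 with array weights, and -0.11 to 0.17 with 1 array left out. LAMC1 at 72 h was 0.012 with the mean of its probe sets. With 1 array left out, LAMC1 at 8 h lay between -0.12 and 0.000302, LAMA5 at 8 h between -0.023 and 0.20, LAMB1 between -0.067 and 0.17 at 8 h and -0.27 and 0.058 at 24 h, and COL4A1 at 72 h against 24 h between -0.15 and 0.043. The cause was not tested. Beyond 3 arrays a group, the low signal of HSPG2 limits what can be said of it.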
